A study of Homo sapiens with 12 samples.

Results

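SREBP control and cholesterol transport were followed through 8 genes, SREBF1, SREBF2, SCAP, INSIG1, INSIG2, STARD4, ABCA1 and ABCG1, found by symbol among the 25370 genes of an RNA-seq count table. All 8 had counts in each of the 12 libraries, so none was lost to the filter, which removed genes with 0 counts in every library and left 21132 genes for testing. The cells were T47D, an estrogen receptor-positive line from a human breast carcinoma. Every group spent 48 hours in 5% charcoal-stripped serum and 24 hours without serum before treatment. The groups were vehicle, anastrozole at 10 nM, estradiol (E2) at 0.1 nM, and anastrozole at 10 nM with E2 at 0.1 nM, each with replicates a, b and c (n = 3) and, by the sample labels, 12 hours of exposure. Anastrozole is an inhibitor of aromatase, the enzyme that makes estrogens from androgens, and the labels name no androgen among the treatments. They do not say whether the replicates were separate cultures, so the p-values measure the spread between these libraries, which may be technical.

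SREBF1 and SREBF2 encode the sterol regulatory element-binding proteins SREBP1 and SREBP2, transcription factors held as precursors in the membrane of the endoplasmic reticulum. When membrane sterol falls, SCAP carries them to the Golgi, where proteases release the part that enters the nucleus and raises genes of sterol and fatty acid synthesis; when sterol is plentiful, INSIG1 and INSIG2 hold SCAP back. STARD4 moves cholesterol between membranes inside the cell, and ABCA1 and ABCG1, targets of the oxysterol receptors called LXRs, export it to apolipoprotein A-I and to high-density lipoprotein. INSIG1 and STARD4 are themselves SREBP2 targets, and SREBF1 is a target of LXRs.

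The libraries held between 9914253 and 17009776 reads counted on genes, and 3 counts, taken as the limit of detection, came to between 0.177 and 0.303 CPM, the counts after scaling to a common library size by the TMM method of edgeR; this limit covers counting error only. Replicates of a group differed by more than sampling noise in every pair, and chi-square over its degrees of freedom ran from 1.28 to 4.83, the highest between anastrozole a and c. The label of the cells was checked against markers. The luminal breast markers (8 of 8 present) summed to between 9632 and 10232 CPM in the group means, with KRT19 the highest at 2700 to 3010 CPM, whereas the basal keratin KRT5, the leukocyte gene PTPRC and the endothelial gene PECAM1 were at or under 0.0778 CPM in every group mean. Other markers of these lists were higher. The 3 basal markers summed to between 1.98 and 2.45 CPM, most of it TP63 at 1.48 to 2.05, the 2 endothelial markers summed to between 0.22 and 0.36 CPM and the 2 adipocyte markers to between 2.0 and 2.12 CPM. The 4 leukocyte and macrophage markers summed to between 4.32 and 6.80 CPM, with CD163 at 0 in all libraries. Most of this was CD68, a lysosomal protein gene, at 3.118 to 4.356 CPM with vehicle, 5.410 to 7.140 with anastrozole, 5.021 to 5.693 with E2 and 4.941 to 5.791 with the combination. Of the 3 fibroblast markers COL1A1 stood at 86.7 to 97.8 CPM and COL1A2 was at 0 with vehicle and anastrozole. The part of these markers in the results was not tested.

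Sequences are shown for the members with a known feedback motif or the clearest difference between treatments. The promoter of SREBF2 (RefSeq, GRCh38.p14, chr22:41832855-41833154, plus strand, from 250 bases before to 50 after the start) was the only promoter among the 7 members with an entry in which the sterol regulatory element letters TCACNCCAC were found, against 1.1% of 35116 promoters of this length. Capitals mark this element at positions -133 to -125, counted with the start base as 0, and also the GC boxes (GGGCGG) and the CCAAT box, searched on both strands; the last GC boxes overlap by 1 base.
SREBF2 promoter: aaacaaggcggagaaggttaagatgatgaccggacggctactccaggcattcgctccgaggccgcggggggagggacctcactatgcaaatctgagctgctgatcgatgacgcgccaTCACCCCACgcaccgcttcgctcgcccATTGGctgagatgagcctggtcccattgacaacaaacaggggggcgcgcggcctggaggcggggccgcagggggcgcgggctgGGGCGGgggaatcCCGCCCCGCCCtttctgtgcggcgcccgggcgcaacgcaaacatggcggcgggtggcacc
The promoter of INSIG1, the gene with the clearest difference between treatments below, lies at chr7:155297628-155297927 on the plus strand. Capitals mark 6 GC boxes, 1 CCAAT box and 2 E-boxes (CANNTG). These letters are common, since 45.0%, 34.6% and 68.7% of the 35116 promoters hold a GC box, a CCAAT box and an E-box, and a match is not a bound site.
INSIG1 promoter: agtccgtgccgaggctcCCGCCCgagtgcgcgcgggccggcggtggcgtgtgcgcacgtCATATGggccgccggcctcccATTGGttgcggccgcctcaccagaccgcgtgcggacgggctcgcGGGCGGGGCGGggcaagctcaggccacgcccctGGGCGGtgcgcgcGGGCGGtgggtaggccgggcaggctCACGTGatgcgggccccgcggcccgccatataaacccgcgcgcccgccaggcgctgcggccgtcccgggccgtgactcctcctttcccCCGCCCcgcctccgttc
SREBF2 and SREBF1 also carry in their introns the genes of the microRNAs miR-33a and miR-33b, known for lowering ABCA1. Their mature sequences (RefSeq, GRCh38.p14, chr22:41900949-41900969, plus strand, and chr17:17813897-17813916, minus strand) share the seed, bases 2 to 8, in capitals.
miR-33a-5p: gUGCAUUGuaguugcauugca
miR-33b-5p: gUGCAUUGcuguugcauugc
The letters that pair with this seed, CAATGCA, occurred 4 times in the 3′ UTR of ABCA1, once in that of SCAP and in none of the other 6 members. Of 19403 canonical transcripts 8.4% had a match and 0.15% had 3 or more. The 3 neighbouring matches of ABCA1 (GRCh37, chr9:107546436-107546465, minus strand) are in capitals.
ABCA1 3′ UTR: tattCAATGCAATGCAattCAATGCAatga
Reads assigned to the microRNA genes were too few to compare: the group means of MIR33A were at most 0.0682 CPM and those of MIR33B at most 0.198 CPM.

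Levels were compared between genes per kilobase (kb) of exon. In vehicle INSIG1 was highest at 37.9 ± 1.56 CPM per kb (mean ± SD), followed by SREBF2 with 29.90, 29.24 and 30.90 in a, b and c, SREBF1 at 21.7 ± 0.715, INSIG2 at 15.8 ± 0.639, SCAP at 10.0 ± 0.226 and STARD4 at 7.26 ± 0.363. ABCG1, at 2.62 ± 0.176 CPM per kb, and ABCA1, at 0.553 ± 0.114, were lowest. No neighbours in this order were within their spreads, and INSIG1 was above 94.9% and ABCA1 above 32.7% of 19623 genes of known length. The order was the same in 11 of the 12 libraries. The exception was E2 c, and in the E2 group SREBF1 (17.8 ± 0.154 CPM per kb) and INSIG2 (17.8 ± 0.315) could not be told apart.

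**Figure D1:**
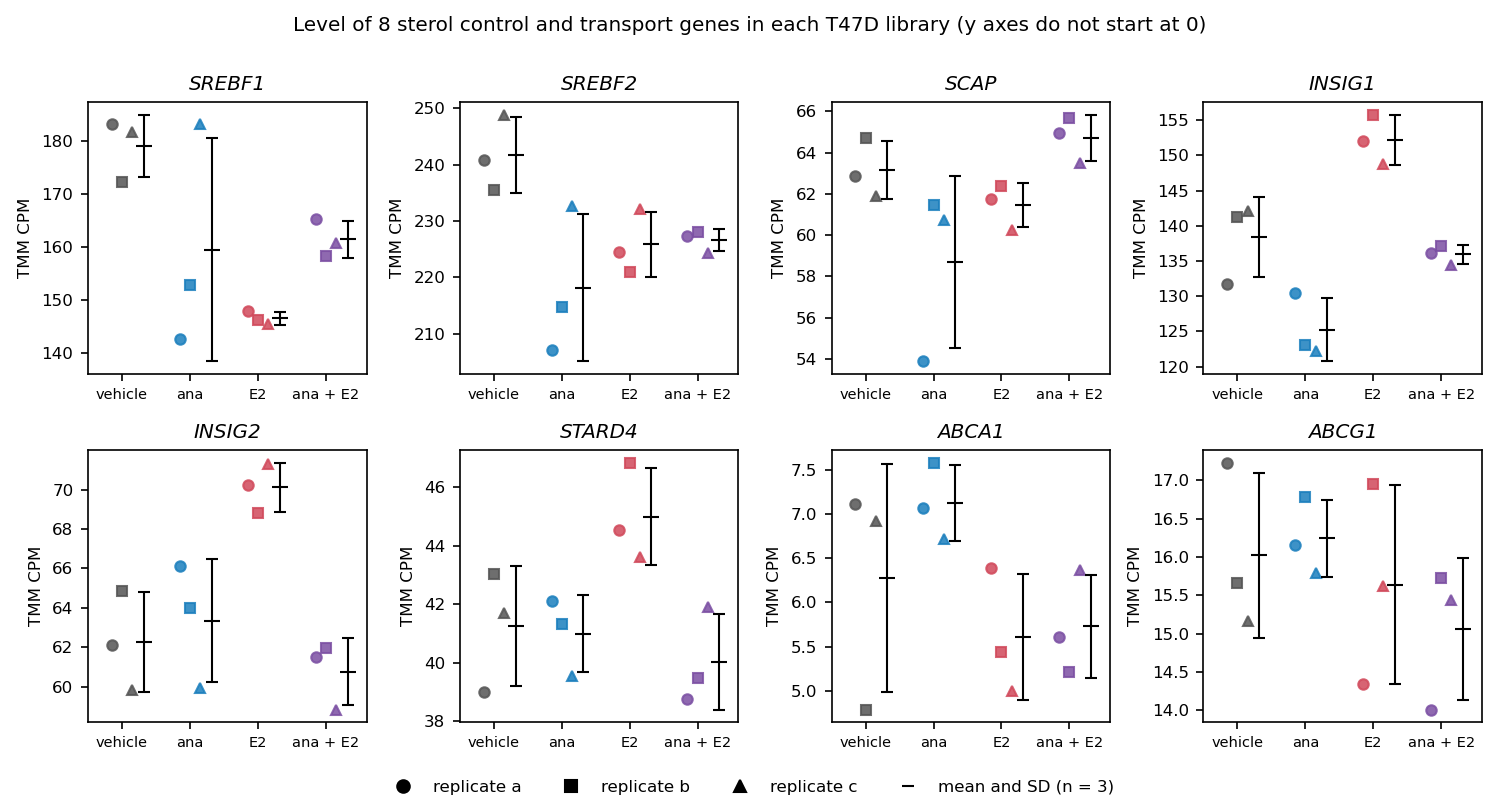
TMM-normalised CPM (y axes, not starting at 0) of the 8 genes in each library, by group (x axes; ana, anastrozole), with the replicate letter as the symbol and the mean and SD (n = 3) beside the points. In the E2 group SREBF1 had its lowest mean and INSIG1, INSIG2 and STARD4 their highest, and SREBF1 in anastrozole c (183.1 CPM) lay at the level of vehicle.

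Each treatment was compared with vehicle and with each other treatment, and a gene was called changed where edgeR's quasi-likelihood test, adjusted over all 21132 genes by the method of Benjamini and Hochberg, gave a p under 0.05. With E2 against vehicle 4 of the 8 genes passed, 2 lower and 2 higher, where 12.0% of all genes passed. With anastrozole against vehicle 2 passed, both lower, where 3.67% of all genes passed. With the combination against vehicle 1 passed (lower; 5.04% of all genes). Between anastrozole and E2 1 passed (lower with anastrozole; 1.33% of all genes), and between the combination and E2 3 passed (1 higher and 2 lower; 6.74% of all genes). Between the combination and anastrozole none of the 8 passed, where 2.90% of all genes did; 3 had an unadjusted p under 0.05, and DESeq2, limma-voom and the exact test of edgeR called none. The product term, which asks whether the combination departed from the sum of the single changes, passed for 3 (2 higher and 1 lower; 10.9% of all genes). Comparisons that share a control share its libraries, so they are given side by side. Libraries of 2 groups often did not overlap. Against vehicle this held for 17.7% of all genes with anastrozole, 25.4% with E2 and 18.5% with the combination. It held for 3, 5 and 2 of the 8 genes. Between anastrozole and E2 the share was 13.1%, between the combination and E2 21.1% and between the combination and anastrozole 16.9%. Of the 8 genes 4, 5 and 4 lay apart there.

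SREBF1 (GRCh37, chr17:17713713-17740316, minus strand) was lower in every E2 library than in every vehicle library. It was counted at 183.1, 172.3 and 181.7 CPM in vehicle a, b and c and at 148.0, 146.2 and 145.6 CPM with E2. This was a fall of 0.29 on the log2 scale (SE 0.038, adjusted p = 7.27e-12), or 0.819 of the vehicle level. The combination libraries, at 165.2, 158.3 and 160.8 CPM, lay between these groups without overlap. They were lower than vehicle (log2 fold change -0.15, SE 0.0391, adjusted p = 0.0058) and higher than E2 (log2 fold change 0.14, SE 0.0355, adjusted p = 0.00327). The difference from E2 was 0.032 and did not pass with the trend on GC content, described below, removed. The anastrozole libraries a and b, at 142.7 and 152.8 CPM, were near E2, and anastrozole c, at 183.1 CPM, was as high as vehicle. The comparison of anastrozole with vehicle passed (log2 fold change -0.17, SE 0.0479, adjusted p = 0.0213), but without vehicle a (-0.15), vehicle c (-0.16), anastrozole a (-0.089) or anastrozole b (-0.14) it did not. Nor did it pass in 6 of 10 alternative fits. In 4 of these the value was close to the one given (filterByExpr, -0.17; DESeq2's test, -0.17; limma-voom, -0.18; the exact test, -0.17), and in the others, which removed the trend on GC content described below, it was -0.058 and -0.059. Without anastrozole c the log2 fold change was -0.28, and it passed. Against E2, anastrozole gave a log2 fold change of 0.13 that did not pass (adjusted p = 0.164), but it passed without anastrozole a (0.20), whereas without anastrozole c it was 0.013. The combination against vehicle did not pass with limma-voom (-0.15) or without vehicle c (-0.13), combination b (-0.13) or combination c (-0.14). Of the exon bases of SREBF1, 6.75% overlap RAI1 on the other strand, and the table does not separate the transcripts of SREBP1a and SREBP1c.

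SREBF2 (chr22:42229109-42303310, plus strand), whose product is the main activator of cholesterol synthesis genes, differed less between groups. It stood at 240.8, 235.5 and 248.9 CPM in vehicle and 207.1, 214.7 and 232.6 CPM with anastrozole. All 3 anastrozole values were under the lowest vehicle value (log2 fold change -0.15, SE 0.0455, adjusted p = 0.0366). With E2 the values were 224.4, 220.9 and 232.2 CPM, again under vehicle (log2 fold change -0.098, SE 0.0349, adjusted p = 0.0425). The combination, at 227.4, 228.1 and 224.3 CPM, gave a log2 fold change of -0.093 against vehicle that did not pass (SE 0.0368, adjusted p = 0.139), and no comparison between treatments passed. The fall with anastrozole did not pass in the same 6 of 10 alternative fits (-0.15 in the 4 that kept the GC trend and -0.076 in the others), nor without vehicle a (-0.15), vehicle c (-0.13), anastrozole a (-0.11) or anastrozole b (-0.14), and that with E2 did not pass in 7 of 10 alternative fits (-0.10 to -0.098 in the 5 that kept the GC trend and -0.018 in the others), nor without vehicle a (-0.10), vehicle c (-0.075), E2 a (-0.094) or E2 b (-0.082). Of its exon bases 9.08% overlap SREBF2-AS1 on the other strand. The ratio of SREBF2 to SREBF1 per kb was 1.38 ± 0.0314 with vehicle, 1.41 ± 0.0961 with anastrozole, 1.58 ± 0.0481 with E2 and 1.44 ± 0.0343 with the combination.

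SCAP (chr3:47455171-47518616, minus strand), the escort of the SREBPs, passed in no comparison. Its libraries lay at 61.92 to 64.71 CPM with vehicle, 53.88 to 61.44 with anastrozole, 60.26 to 62.38 with E2 and 63.48 to 65.70 with the combination. Anastrozole a was the lowest library. The lowest adjusted p among the pairs of groups was 0.218, between the combination and anastrozole (log2 fold change 0.14, 95% interval 0.0239 to 0.263). With a library left out this difference ran from 0.082 to 0.18. With the trend on GC content removed, as described below, it was 0.064 (adjusted p = 0.767).

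INSIG1 (chr7:155089486-155101945, plus strand), which retains SCAP and is itself raised by SREBP2, was highest with E2 and lowest with anastrozole. The values were 152.0, 155.8 and 148.8 CPM with E2 and 130.4, 123.1 and 122.2 CPM with anastrozole. The groups did not overlap, and anastrozole was lower than E2 by a log2 fold change of -0.27 (SE 0.0442, adjusted p = 4.78e-07), rank 25 of 21132 genes by p. The combination, at 136.2, 137.2 and 134.5 CPM, was lower than every E2 library as well (log2 fold change -0.16, SE 0.0361, adjusted p = 0.000489). Vehicle, at 131.8, 141.3 and 142.1 CPM, overlapped the combination (log2 fold change -0.026, SE 0.0411, adjusted p = 0.834) and lay under E2. The rise with E2 over vehicle was 0.14 (SE 0.0392, adjusted p = 0.00707). It did not pass with limma-voom (0.14), without vehicle a (0.10) or E2 b (0.12), or with the GC trend described below removed (0.099). Anastrozole against vehicle gave a log2 fold change of -0.14 (SE 0.0503) that did not pass (adjusted p = 0.0857). Fitted with all 12 libraries it passed (-0.14). All 3 anastrozole values were under the lowest vehicle value, and 17.7% of all genes lay apart in this comparison. The combination against anastrozole gave 0.11 (SE 0.0468, adjusted p = 0.187). The differences from E2 of anastrozole and of the combination passed in all 10 alternative fits and in all 6 fits with a library left out.

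INSIG2 (chr2:118846028-118868573, plus strand), the paralog of INSIG1 that also retains SCAP, was highest with E2. It stood at 62.12, 64.86 and 59.82 CPM with vehicle and 70.26, 68.82 and 71.30 CPM with E2, with no overlap (log2 fold change 0.17, SE 0.0512, adjusted p = 0.0114). The combination, at 61.51, 61.94 and 58.83 CPM, overlapped vehicle and lay under every E2 library (against E2, log2 fold change -0.20, SE 0.0482, adjusted p = 0.0013). Anastrozole, at 66.14, 63.97 and 59.95 CPM, overlapped vehicle, and its difference from E2 (log2 fold change -0.14, SE 0.0563) did not pass (adjusted p = 0.326). The rise with E2 did not pass with DESeq2's test (0.17) or without vehicle c (0.14) or E2 c (0.16). With the trend on GC content removed, as described below, this rise was 0.077 and the difference of the combination from E2 was -0.11. Neither passed in that fit. INSIG1 exceeded INSIG2 per kb by a ratio of 2.41 ± 0.144 with vehicle, 2.14 ± 0.0618 with anastrozole, 2.35 ± 0.0955 with E2 and 2.42 ± 0.0443 with the combination.

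STARD4 (chr5:110831731-110848288, minus strand) passed in no comparison of the tests as described. It was counted at 38.99, 43.04 and 41.70 CPM with vehicle, 42.12, 41.33 and 39.53 with anastrozole, 44.55, 46.85 and 43.60 with E2 and 38.75, 39.46 and 41.89 with the combination. Every E2 library was above every library of the other groups. Of all genes 25.4% lay apart between E2 and vehicle, 13.1% between anastrozole and E2 and 21.1% between the combination and E2. The difference nearest to the threshold was that of the combination from E2 (log2 fold change -0.17, SE 0.0602, adjusted p = 0.06). It passed with the replicate letter as a block (-0.17). With the trend on GC content removed, as described below, it was -0.057 (adjusted p = 0.816). The change with E2 against vehicle went from 0.13 to 0.016 in that fit. Of its exon bases 2.18% overlap STARD4-AS1 on the other strand.

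ABCA1 (chr9:107543287-107690436, minus strand) and ABCG1 (chr21:43619799-43717354, plus strand), the exporters, passed in no comparison. ABCA1 was counted with 63 to 98 reads a library, at 7.118, 4.790 and 6.923 CPM with vehicle, 7.068, 7.579 and 6.719 with anastrozole, 6.387, 5.435 and 4.998 with E2 and 5.614, 5.220 and 6.362 with the combination. The anastrozole libraries lay above those of E2 and of the combination, and vehicle overlapped all groups. Of all genes 13.1% lay apart between anastrozole and E2 and 16.9% between the combination and anastrozole. The largest difference of ABCA1, anastrozole against E2, had a log2 fold change of 0.36 (95% interval 0.0503 to 0.66, adjusted p = 0.403). ABCG1 lay between 14.01 and 17.23 CPM in all libraries. Its log2 fold changes had standard errors from 0.0900 to 0.106 in the pairs of groups.

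**Figure D2:**
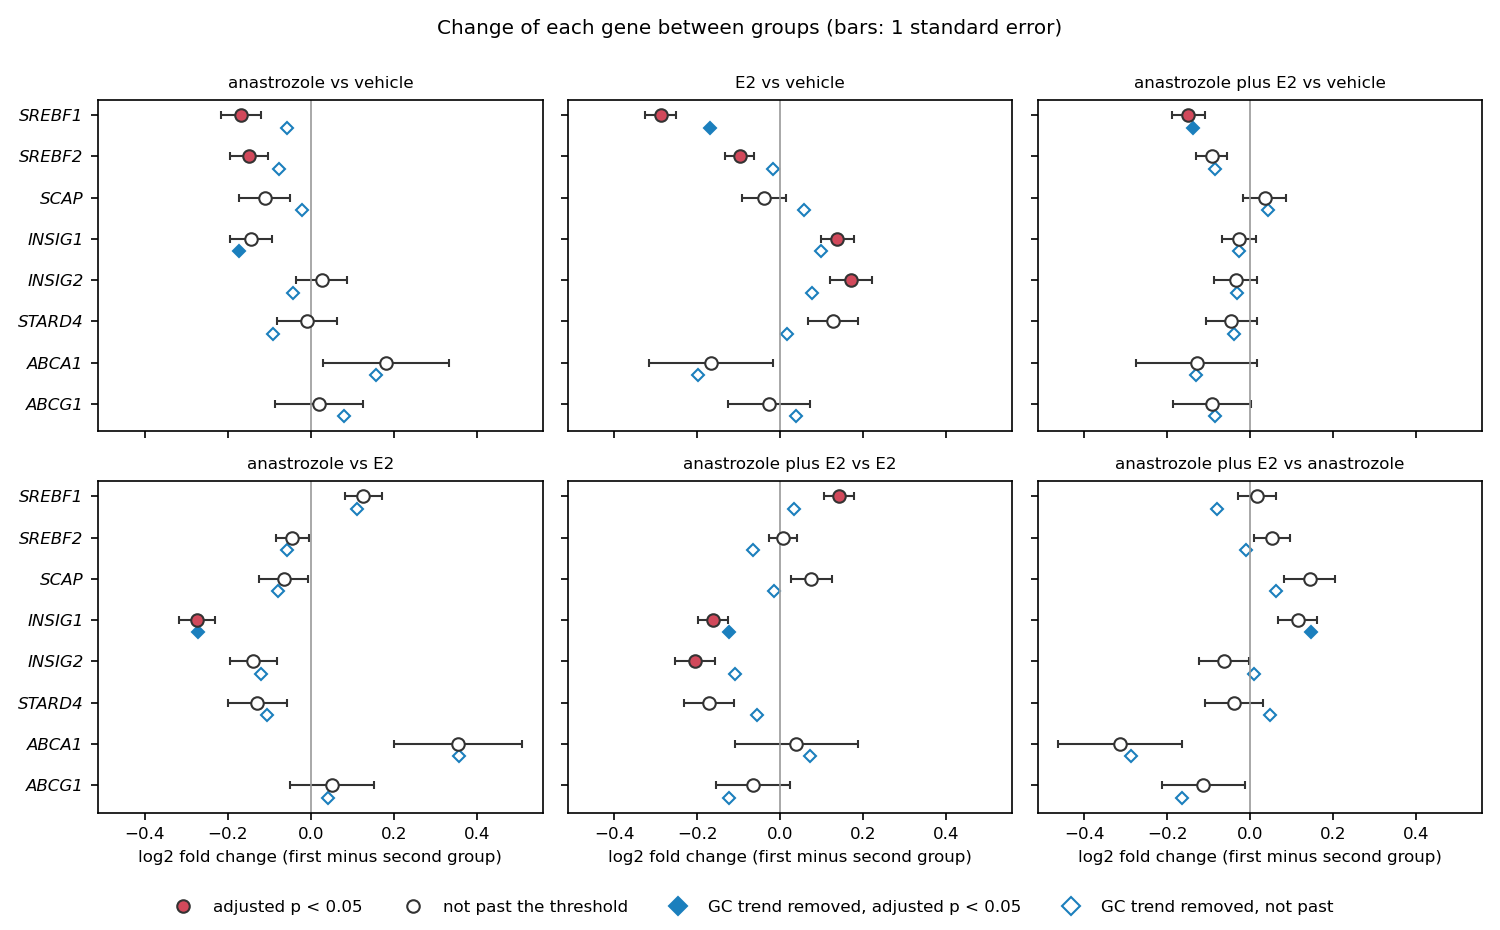
Log2 fold change of each gene (x axes, first group minus second) in the 6 comparisons, with bars of 1 standard error; filled circles have an adjusted p under 0.05, and diamonds give the value after the trend on GC content was removed. INSIG1 keeps a filled diamond against E2 with anastrozole (-0.27) and with the combination (-0.12), and SREBF1 keeps one with E2 (-0.17) and the combination (-0.14) against vehicle.

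The product term was positive for SREBF1 (0.31, SE 0.0589, adjusted p = 1.86e-05) and SREBF2 (0.15, SE 0.0555, adjusted p = 0.0499) and negative for INSIG2 (-0.23, SE 0.0757, adjusted p = 0.0256). The SREBF1 value means that the single falls, -0.17 with anastrozole and -0.29 with E2, did not add in the combination (-0.15). It passed with each of the 12 libraries left out, with values from 0.23 to 0.42, but with the GC trend removed it was 0.091 and did not pass (adjusted p = 0.442). The SREBF2 term lay at the threshold and failed in 9 of these 12 fits, passing only without vehicle b, anastrozole c or E2 c. Its values ran from 0.12 to 0.20 over all 12. It passed in 1 of 9 alternative fits and was 0.0087 with the GC trend removed. The INSIG2 term failed in 6 of the 12 fits with a library left out. These were the fits without vehicle a, vehicle c, anastrozole a, anastrozole b, E2 c or combination c. Its values ran from -0.27 to -0.20 over all 12. It also failed with limma-voom (-0.23) and with the GC trend removed (-0.068). INSIG1 had a product term of -0.020 (SE 0.061, adjusted p = 0.969).

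Changes across all genes followed base composition, and the members differ in it. Over 10847 genes of at least 3 log2 CPM, Spearman's rho of the change with exon GC content was -0.53 for anastrozole and -0.55 for E2 against vehicle, -0.026 for the combination against vehicle, 0.11 for anastrozole against E2, 0.69 for the combination against E2 and 0.57 for the combination against anastrozole. These are correlations across genes, which share libraries. GC content was 61.55% for SREBF1, 59.08% for SCAP, 57.03% for SREBF2 and 55.22% for ABCG1, but 45.40% for ABCA1, 44.60% for INSIG1, 37.50% for INSIG2 and 34.62% for STARD4. The fits were therefore repeated with each library's trend on GC content removed, which also takes away any true change that follows GC content. Of all genes 2.90%, 7.57% and 6.02% then passed against vehicle with anastrozole, E2 and the combination. Between anastrozole and E2 2.34% passed, between the combination and E2 0.937%, between the combination and anastrozole 2.01%, and in the product term 2.62%. The fall of SREBF1 with E2 (-0.17, adjusted p = 4.7e-05) and with the combination (-0.14, adjusted p = 0.00399) still passed, as did the differences of INSIG1 from E2 with anastrozole (-0.27, adjusted p = 1.89e-10) and with the combination (-0.12, adjusted p = 0.0431). INSIG1 then also passed with anastrozole against vehicle (-0.17) and with the combination against anastrozole (0.15). The falls with anastrozole of SREBF1 (-0.058, adjusted p = 0.56) and SREBF2 (-0.076, adjusted p = 0.302) no longer passed. Nor did the changes with E2 of SREBF2 (-0.018), INSIG1 (0.099) and INSIG2 (0.077), the differences of SREBF1 (0.032) and INSIG2 (-0.11) between the combination and E2, and the product terms of SREBF1 (0.091), SREBF2 (0.0087) and INSIG2 (-0.068).

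**Figure D3:**
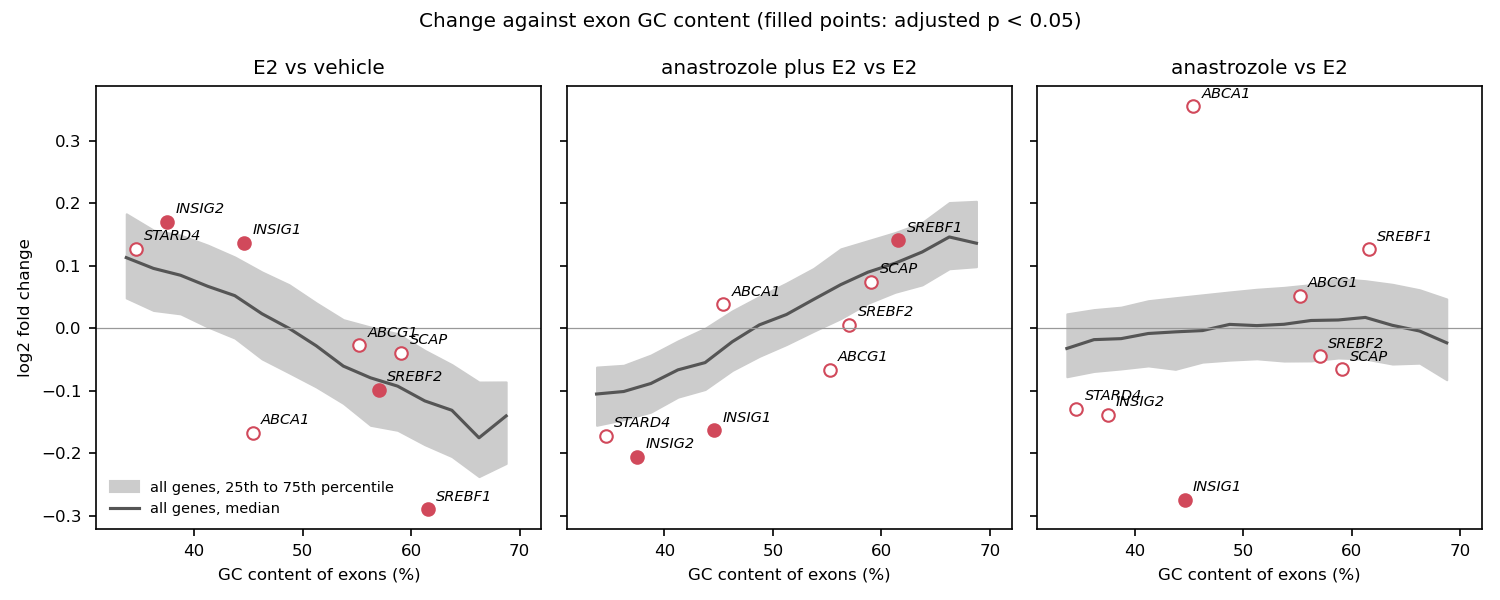
Log2 fold change against exon GC content (%) in 3 comparisons, with the median (line) and the 25th to 75th percentile (band) of all genes of at least 3 log2 CPM in bins of GC content, and the 8 genes as points (filled, adjusted p under 0.05). The line falls with GC content in E2 against vehicle and rises with it in the combination against E2, whereas in anastrozole against E2 the line is nearly flat and INSIG1 (-0.27) lies far under it.

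Genes of sterol and fatty acid synthesis, of SREBP processing and of sterol transport were counted in the same fits and with the GC trend removed. These lists were not counted in the other alternatives or with a library left out. Over all genes, 776 passed with anastrozole against vehicle, but 15 with limma-voom. With a library left out this count ran from 191 (without vehicle c) to 1651 (without anastrozole c). Of 18 genes of cholesterol synthesis reported here, 10 fell and none rose with anastrozole against vehicle, where 3.67% of all genes passed (median log2 fold change -0.186, against 0 for all genes), among them MVD (-0.385), which makes isopentenyl diphosphate, LSS (-0.35), which closes the sterol ring, FDPS (-0.28), which makes farnesyl diphosphate, and DHCR7 (-0.26), a last step of the pathway. With E2, where 12.0% of all genes passed, the list split. 4 genes fell, TM7SF2 (-0.30), MVD (-0.27), LSS (-0.22) and DHCR7 (-0.15), and 3 rose, IDI1 (0.17), MSMO1 (0.11) and FDFT1 (0.089). The genes that fell were richer in GC. Exon GC content was 62.68% for TM7SF2, 62.96% for MVD, 56.22% for LSS and 56.27% for DHCR7. It was 43.06% for IDI1, 38.85% for MSMO1 and 50.45% for FDFT1. With the combination 7 fell and none rose against vehicle (5.04% of all genes), led by LSS (-0.27), MVD (-0.27), TM7SF2 (-0.24) and FDPS (-0.21). Anastrozole against E2 gave 6 of the 18 lower and none higher (1.33% of all genes), led by IDI1 (-0.23), FDPS (-0.23), HMGCS1 (-0.20) and SQLE (-0.20). This is the comparison in which INSIG1 was lower as well. The combination against E2 gave 7 lower and none higher (6.74% of all genes), led by SC5D (-0.28), IDI1 (-0.24), MSMO1 (-0.19) and FDPS (-0.17). The combination against anastrozole gave 1 lower, SC5D (-0.18), where 2.90% of all genes passed. The product term passed for 7 (10.9% of all genes), with 5 positive, MVD (0.38), LSS (0.30), TM7SF2 (0.26), DHCR7 (0.20) and MVK (0.27), and 2 negative, SC5D (-0.24) and IDI1 (-0.18). Here too the 5 positive genes were richer in GC than the 2 negative ones, with MVK at 56.05% and SC5D at 37.26%. With the GC trend removed 14 of the 18 fell with anastrozole (2.90% of all genes passed), 2 rose and 3 fell with E2 (7.57%) and 9 fell with the combination (6.02%). In these fits 11 were lower with anastrozole than with E2 (2.34%), 7 were lower with the combination than with E2 (0.937%), 1 was higher and 1 lower with the combination than with anastrozole (2.01%), and 1 product term passed (2.62%).

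**Figure D4:**
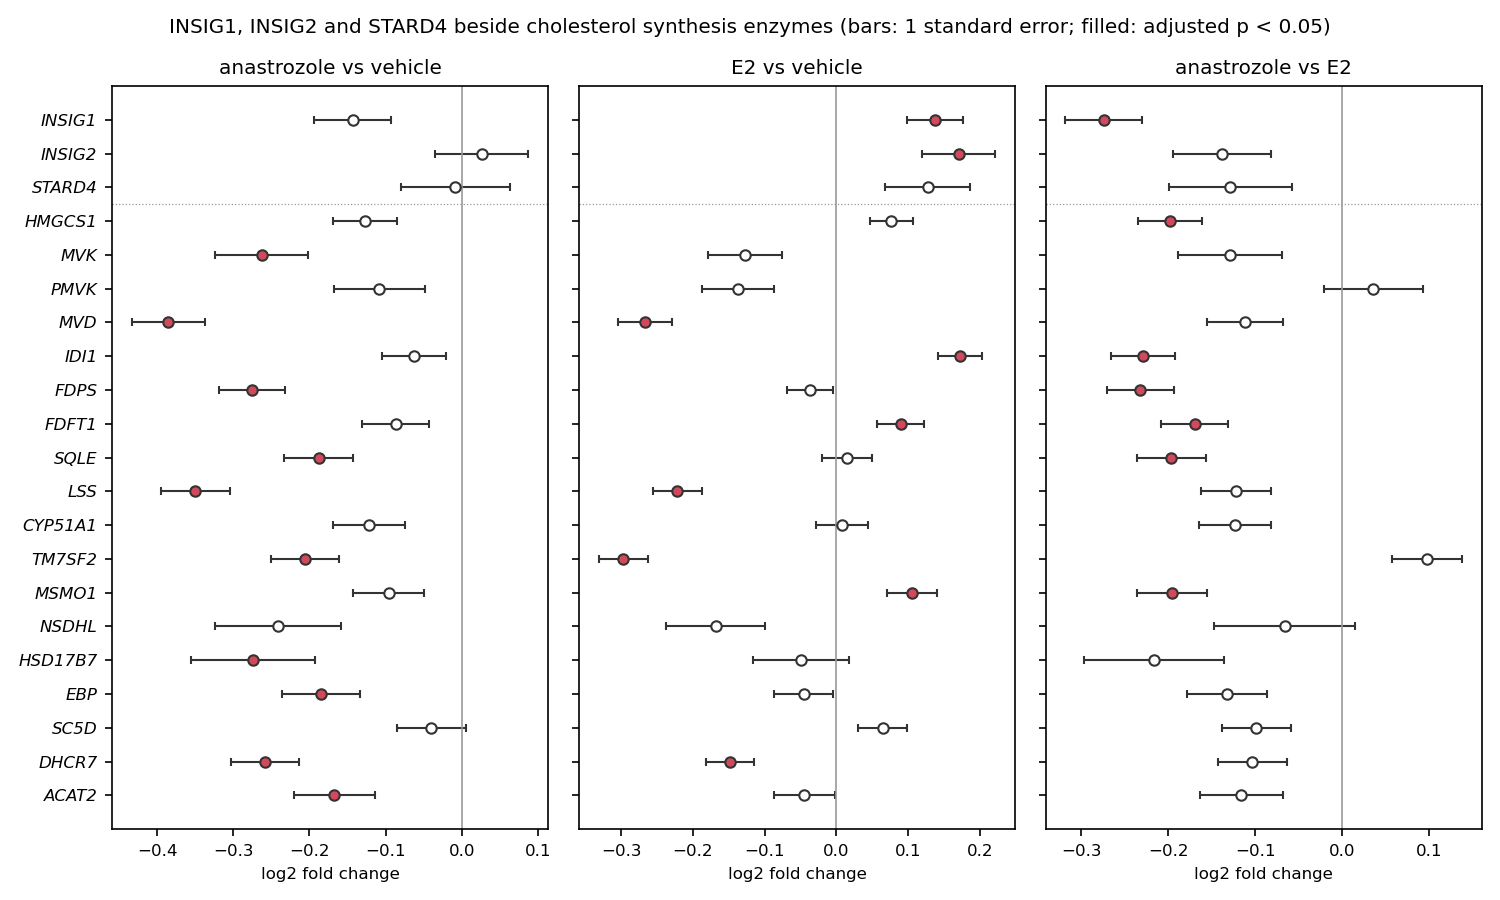
Log2 fold change (x axes) with bars of 1 standard error for INSIG1, INSIG2 and STARD4 (above the dotted line) and for 18 cholesterol synthesis genes (below), filled where the adjusted p was under 0.05. In anastrozole against E2, INSIG1 (-0.27) and 6 of the 18 synthesis genes passed, all on the lower side.

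The 13 fatty acid genes activated by SREBP1 gave 4 falls and no rise with anastrozole against vehicle, where 3.67% of all genes passed, FASN (-0.29), the fatty acid synthase, ACLY (-0.18), which supplies acetyl-CoA, FADS2 (-0.20), a desaturase, and ACSS2 (-0.18). The anastrozole libraries spread widely for FASN, from 854.5 to 1102 CPM (SD 124), against 1156 to 1205 CPM (SD 27.4) with vehicle. With E2 4 fell and none rose (12.0% of all genes), FASN (-0.38), FADS2 (-0.23), ACLY (-0.0997) and ACACA (-0.11), in the comparison in which SREBF1 fell by 0.29. With the combination 6 fell and none rose (5.04% of all genes), led by FASN (-0.26), ACLY (-0.17), SCD (-0.13) and FADS2 (-0.21). Against E2, anastrozole gave 2 lower, ACSS2 (-0.19) and SCD (-0.12), where 1.33% of all genes passed. Against E2 the combination, where 6.74% of all genes passed, gave 3 lower, SCD (-0.13), ACSS2 (-0.17) and LPIN1 (-0.26), and 1 higher, FASN (0.12). FASN (0.41) and FADS2 (0.22) had a positive product term, as SREBF1 did, and 10.9% of all genes passed in that term. Exon GC content was 65.2% for FASN, 57.46% for FADS2 and 61.55% for SREBF1. With the GC trend removed the SREBF1 term was 0.091 and did not pass. Whether the changes of SREBF1 and of these genes are linked was not tested. Between the combination and anastrozole no gene of this list passed (2.90% of all genes), and 0 had an unadjusted p under 0.05. With the GC trend removed 4, 3 and 7 of the 13 genes fell against vehicle with anastrozole, E2 and the combination, where 2.90%, 7.57% and 6.02% of all genes passed, and no gene of the list rose; 2 and 4 were lower than with E2 under anastrozole and the combination, with none higher (2.34% and 0.937% of all genes), and 1 product term passed (2.62%).

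Of 9 genes of SREBP processing, E2 raised 2, where 12.0% of all genes passed, PAQR3 (0.31), which tethers SCAP at the Golgi, and ERLIN2 (0.11), and none passed with the combination against vehicle, where 5.04% of all genes passed and 0 of the 9 had an unadjusted p under 0.05. RNF139 was lower in the combination than with E2 (-0.15; 6.74% of all genes passed). Product terms passed for PAQR3 (-0.42) and RNF139 (-0.21), where 10.9% of all genes passed, and none of the 9 passed with anastrozole against vehicle (2 at an unadjusted p under 0.05), where 3.67% of all genes did. Of 12 LXR receptors and other LXR targets, 1 passed, RXRA (-0.14 with E2), the partner receptor of LXRs, a share near the 12.0% of all genes. Of 17 genes of sterol transport and storage, 1 passed with E2, again near the 12.0% of all genes or under it, GRAMD1C (0.29), and 1 with the combination, SOAT1 (-0.18), which esterifies cholesterol, where 5.04% of all genes passed. In the combination against E2, where 6.74% of all genes passed, LIPA (-0.21), the lysosomal cholesterol ester hydrolase, SOAT1 (-0.20), GRAMD1C (-0.26) and NPC2 (-0.14) were lower and SCARB1 (0.13) was higher. SCARB1, a lipoprotein receptor, was also higher in the combination than with anastrozole (0.16; 2.90% of all genes passed). Its product term (0.24) and those of GRAMD1C (-0.50) and LIPA (-0.20) passed, 3 of the 17 where 10.9% of all genes did. With the GC trend removed no processing gene passed in any comparison, where 0.937% to 7.57% of all genes passed. RXRA did not pass, and 1 other gene of the LXR list was lower with the combination than with anastrozole (2.01% of all genes). Of the transport genes 1 was lower with the combination than with vehicle (6.02% of all genes) and 2 than with E2 (0.937%). In this list 1 product term passed, on the negative side (2.62% of all genes).

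Over the 12 libraries, among genes of at least 3 log2 CPM, INSIG1 was most like DPYSL2 (Pearson's r = 0.965 on log2 CPM), HMGCS1 (0.907), which encodes HMG-CoA synthase, and PPIC (0.896). Among the genes most like INSIG2 were MTCH2 (0.951) and ANKRD22 (0.941). SREBF1 was most like BCL9L (0.978), BCAM (0.968) and PLXNB2 (0.965). SREBF2 was most like TJP3 (0.942), SCAP like AUTS2 (0.940), STARD4 like WWTR1 (0.928), ABCG1 like COX18 (0.904) and ABCA1 like MED23 (0.853). These values describe the 12 libraries, which fall into 4 groups and differ in depth and in their trend on GC content. They were picked as the highest of 11036 genes (11037 for ABCA1).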

How the data were processed

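RNA-seq of 12 T47D libraries, 3 for each of 4 groups, was re-analysed from the raw counts that the authors deposited. Per the labels and the study's methods, they prepared libraries with NuGEN Encore reagents, aligned reads to hg19 with TopHat2 2.0.14 and Bowtie2 2.2.6 and counted reads per gene with HTSeq, whose version, annotation and strand setting are not given in the sources used here. The labels give 12 hours of treatment, and the study's methods give 24. Summary lines of the counter were left out. They held between 66.5% and 67.3% of the reads, mostly reads that the counter assigned to no feature (58.6% to 59.9%), and 0 columns belonged to other samples.

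Everything from the counts onward was computed here with edgeR 4.0.16 in R 4.3.3. Genes at 0 in all libraries were removed (4238), TMM factors (0.991 to 1.01) were applied, and pairs of groups were fitted on their own 6 libraries, the product term on all 12, with the robust quasi-likelihood test, 2-sided, and Benjamini-Hochberg adjustment over 21132 genes. Standard errors are the absolute log2 fold change over the square root of F. The code was tested on simulated data. The alternatives were DESeq2 1.42.0 (its size factors, or its test), library size alone, filterByExpr, limma-voom (limma 3.58.1), the exact or likelihood ratio test of edgeR, all 12 libraries, the replicate letter as a block, a GC offset (lowess, span 0.5, on genes of at least 3 log2 CPM), the offset with the block, and leaving out each library. Positions, exon lengths and GC content came from GENCODE release 44 on GRCh37, and 23032 of 25370 genes were matched by symbol or older symbol.

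The members, the lists and the alternatives were chosen with earlier results of these data known. Named were all members in every comparison, of each list up to 4 called genes with the lowest adjusted p per comparison and any needed to account for a count of 5 or fewer, and the genes of highest correlation with each member. In the cholesterol synthesis list SC4MOL and SC5DL are older names of MSMO1 and SC5D and were not counted apart. Some genes of the cholesterol synthesis and SREBP processing lists are not reported here, and the counts of these lists leave them out.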

Additional observations from a re-analysis of the deposited data

Results flagged for a closer look

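For 3 of the 8 genes the product term of edgeR's quasi-likelihood fit on all 12 libraries passed. It asks whether the change with anastrozole differed between cells without and with E2. Of all genes 10.9% passed in this term, and 2.62% with the trend on GC content removed. For SREBF1 the change with anastrozole was -0.17 on the log2 scale without E2 and 0.14 with E2, a difference of 0.31 (adjusted p = 1.86e-05). For SREBF2 the changes were -0.15 and 0.0060, a difference of 0.15 (adjusted p = 0.0499). For INSIG2 they were 0.026 and -0.20, a difference of -0.23 (adjusted p = 0.0256). With the trend on GC content removed these differences were 0.091, 0.0087 and -0.068, with adjusted p of 0.442, 1 and 0.785. SREBF1 in anastrozole c (183.1 CPM, against 142.7 and 152.8 in a and b) enters the first. Without that library the difference was 0.42. The SREBF2 term passed in 1 of 9 alternative fits and in 3 of 12 fits with a library left out. For INSIG2 these counts were 6 of 9 and 6 of 12, and for SREBF1 7 of 9 and 12 of 12.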

How the results depend on the processing

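Of 56 values (8 genes in 7 comparisons), 14 passed the threshold, none of these changed sign under any alternative or with any library left out, and 3 passed in every such fit: SREBF1 with E2 against vehicle, and INSIG1 with anastrozole and with the combination against E2. Of the 35 values that passed under no setting, 16 changed sign under some setting, and no direction is read from them. For anastrozole against vehicle the count of 2 became 0 with filterByExpr, DESeq2's test, limma-voom or the exact test, and 3 with all 12 libraries, where INSIG1 passed as well; with the GC offset, with or without the block, neither SREBF1 nor SREBF2 passed and INSIG1 alone did, a count of 1; leaving out a library gave 0 to 2. For E2 against vehicle the count of 4 became 3 with the exact test, all 12 libraries in the fit or the replicate block, where SREBF2 no longer passed, 2 with DESeq2's test (without SREBF2 and INSIG2) or limma-voom (without SREBF2 and INSIG1) and 1 with the GC offset, with or without the block; leaving out a library gave 2 to 4. For the combination against vehicle the count of 1 became 0 with limma-voom and 2 with the replicate block, alone or with the GC offset, where SREBF2 passed (-0.093 and -0.085); leaving out a library gave 0 to 1. For anastrozole against E2 leaving out a library gave 1 to 2. For the combination against E2 the count of 3 became 1 with the GC offset, with or without the block, and with the block alone STARD4 passed too (-0.17). For the combination against anastrozole the count of 0 became 1 with the GC offset, with or without the block, and leaving out a library gave 0 to 1. SREBF1 there changed sign, from 0.017 to -0.079 with the GC offset and -0.077 with the offset and the block, and ranged from -0.061 to 0.13 with a library left out, passing only without anastrozole c. For the product term the count of 3 became 2 with DESeq2's size factors, filterByExpr, DESeq2's test, the likelihood ratio test or the replicate block, where SREBF2 no longer passed (it passed in 1 of 9 alternatives), 1 with limma-voom and 0 with the GC offset, with or without the block; leaving out a library gave 1 to 4, the highest without anastrozole c, where SCAP passed (0.22). Fitted with the replicate block, SREBF2 no longer passed with E2 against vehicle (-0.098) or in the product term (0.16). The labels do not say what libraries of the same letter share. In no comparison was the correlation of same-letter deviations over 0.1 for all 3 letters, and only between the combination and vehicle (0.14, 0.067 and 0.035 for a, b and c) did every library correlate best with its own letter, a hint from the data and not from the design. Where no cause is given, the cause was not tested. ABCA1 had 63 to 98 counts a library, the fewest of the 8 genes.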
